A study of Homo sapiens with 8 samples.

Results

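Glycolysis and the pentose phosphate pathway were followed through 34 genes in endothelial cells that lacked one of 2 enhancers. The genes encode glucose and lactate carriers, the enzymes between glucose and lactate, the kinases of the pyruvate dehydrogenase complex and 6 enzymes of the pentose phosphate pathway. They were chosen by gene symbol, from what the proteins do, and made up 34 of the 27945 genes listed in the deposited table. For a gene with several transcripts the one with the highest mean level was used, and 32 of the 34 genes were expressed highly enough to be tested.

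RNA was sequenced from EA.hy926, a line made by fusing umbilical vein endothelial cells with lung carcinoma cells, grown in high-glucose medium with serum. The control group had 2 libraries of control cells. The ΔE2 group had 3 libraries, each of a line grown from a single cell after Cas9 and guide RNAs had removed E2, an active enhancer of the super-enhancer SE12313. The ΔSE12313-b group had 3 libraries of such lines without SE12313-b, a constituent of the same super-enhancer that drove no reporter expression and was meant as a negative control. The study found, however, that its deletion changed gene expression much as that of E2 did, and lowered ADAMTS18 too. The controls are not described as single-cell clones, so growth from one cell and the loss of an enhancer cannot be told apart in either comparison with them. For its growth assay the study used control cells that had received guide RNAs and were kept alongside the clones, and whether the control libraries came from such cells is not stated, so transfection may or may not be matched. Both comparisons use the same 2 control libraries. The deleted stretches code for no protein, so no gene in the table shows their loss directly. Genes that the study names as changed in one deletion only were not used here to check the labels.

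Glycolysis splits glucose into pyruvate, with a small yield of ATP, and lactate dehydrogenase then turns pyruvate into lactate so that the pathway can go on. The pentose phosphate pathway branches off after the first phosphorylation, supplies NADPH and ribose for nucleotides, and hands sugars back to glycolysis. Endothelial cells are known to draw most of their ATP from glycolysis, and many glycolytic genes are known targets of hypoxia-inducible factors and of MYC.

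The promoters of 3 genes are shown because the results turn on them: LDHA had the largest rise in ΔE2, PGAM1 rose as much as LDHA in ΔSE12313-b, and ENO2 had the largest difference between the deletions. Each is given as the 250 bases before the gene's start in RefSeq (build GRCh38.p14), read 5′ to 3′ on the gene's own strand. Capitals mark ACGTG and GCGTG on either strand, letters at the core of the sites that hypoxia-inducible factors bind. LDHA lies on the plus strand at chr11:18394313-18394562, PGAM1 on the plus strand at chr10:97427568-97427817 and ENO2 on the plus strand at chr12:6914330-6914579.
LDHA: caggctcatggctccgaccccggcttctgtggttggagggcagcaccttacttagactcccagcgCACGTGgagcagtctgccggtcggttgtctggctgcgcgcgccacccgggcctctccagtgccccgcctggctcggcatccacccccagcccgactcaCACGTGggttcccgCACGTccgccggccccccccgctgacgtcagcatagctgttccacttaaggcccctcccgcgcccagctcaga
PGAM1: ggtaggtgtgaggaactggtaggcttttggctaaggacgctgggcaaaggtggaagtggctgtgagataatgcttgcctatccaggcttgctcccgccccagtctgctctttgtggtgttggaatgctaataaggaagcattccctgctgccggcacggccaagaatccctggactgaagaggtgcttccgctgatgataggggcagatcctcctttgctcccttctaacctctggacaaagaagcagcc
ENO2: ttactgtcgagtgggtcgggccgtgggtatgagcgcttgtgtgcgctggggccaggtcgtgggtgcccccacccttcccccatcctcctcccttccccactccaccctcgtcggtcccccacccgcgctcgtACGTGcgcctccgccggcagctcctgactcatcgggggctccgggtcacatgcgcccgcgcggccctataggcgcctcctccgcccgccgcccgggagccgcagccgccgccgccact
The LDHA promoter held 5 matches to ACGTG, 4 of them from 2 copies of CACGTG, the E-box that MYC binds, which reads ACGTG on both strands. A second LDHA start listed by RefSeq had 1 GCGTG. The ENO2 promoter held 1 ACGTG, and the PGAM1 promoter held neither motif in this window. Of the 34 genes, 31 had a promoter entry and 22 held ACGTG or GCGTG in at least 1 of their entries. A gene with more entries has more chances to hold a match, and the share of all genes that do was not counted. Counted by promoter, 30 of 59 held either motif, against 43.2% of the 35116 promoters of the same length. Several starts of one gene can overlap, so these promoters are not independent, and a match is a run of letters only.

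Libraries held 12067557 to 19101152 reads, and the share that fell on listed genes was 64.2% and 64.6% in the controls, 70.0% to 73.3% in ΔE2 and 75.2% to 78.4% in ΔSE12313-b. Levels are given as FPKM, fragments per kilobase of transcript, scaled to the reads of the library, so this share enters each value. The median log2 fold change over all 13789 genes tested was 0.14 for ΔE2 and 0.27 for ΔSE12313-b against control, and -0.11 between the deletions. Where a change against control named below passed the test or the 2-fold limit under one scaling only, it is also given with every library centred on its own median (called centred), and where quantile normalization but not centring ended the call of one of the 34 genes, that value is given. The chi-square of the read counts, divided by its degrees of freedom, was 1.18 for the pair of controls and 3.83 to 21.72 for pairs of clones with the same deletion. The labels do not say that the controls came from separate cultures, and p-values measure only the spread between these samples. Of 10 endothelial markers 7 or 8 reached a mean of 0.5 FPKM in every group, CDH5 and TIE1 among them, while CLDN5 had no read in any library. Of 8 epithelial markers 3 did, all keratins, and CDH1 and NKX2-1 had no read. The epithelial sum was 361 to 363 FPKM in the controls, 1080 to 1210 in ΔE2 and 811 to 1070 in ΔSE12313-b, and the endothelial sum was 193 to 196, 168 to 287 and 166 to 222. The epithelial sum, carried by the keratins KRT7, KRT8 and KRT18, was higher in every clone than in the controls, like that of the 34 genes. EPCAM was low and went the other way, at 0.554 and 0.243 FPKM in the controls and 0 to 0.215 in the clones. The part of the epithelial sum in the results was not tested. In RNA from whole cultures, a change in the number of cells that express a gene and a change in RNA per cell cannot be told apart.

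Most of the 34 genes were more abundant in the clones than in the controls. Together they summed to 3716 and 3721 FPKM in the control libraries, while the ΔE2 libraries summed to 6447 to 7187 FPKM and the ΔSE12313-b libraries to 7749 to 8432 FPKM. Most of the rise came from the enzymes between glucose 6-phosphate and lactate, while SLC2A3, which encodes a high-affinity glucose carrier, fell. In ΔE2, 19 of the 32 tested genes were higher and 4 were lower (limma, Benjamini-Hochberg adjusted p under 0.05), against 34.7% and 19.4% of all genes tested. With a change of at least 2-fold also required, 6 were upregulated and 2 downregulated differentially expressed genes (DEGs), where 11.2% and 8.36% of all genes were. The median log2 fold change of the 32 genes was 0.46. With centring, 15 genes were higher and 5 lower (26.6% and 26.1% of all genes), and the DEGs were 4 upregulated and 3 downregulated (8.49% and 10.6%).

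Against the same controls, ΔSE12313-b clones had 26 of the 32 tested genes higher and 3 lower, against 43.0% and 16.4% of all genes. As DEGs 13 were upregulated and 0 downregulated, where 14.7% and 7.83% of all genes were, and at an unadjusted p under 0.05 limma also gave 0 downregulated, while voom on the recovered reads gave 1. The median log2 fold change of the 32 genes was 0.90. With centring, 20 were higher and 3 lower (27.7% and 27.3% of all genes), 6 were upregulated DEGs and 1 was a downregulated one (8.71% and 11.4%). The counts of DEGs in both deletions thus moved with the scaling.

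Glucose enters through the carriers encoded by SLC2A1 (GLUT1) and SLC2A3 (GLUT3), and the pair moved in opposite directions. SLC2A3, on chromosome 12 at 8071824 to 8088892 (GRCh37, as are all gene positions below), was at 38.1 and 40 FPKM in the controls, 8.88, 11.7 and 9.37 in ΔE2, and 20.3, 21.2 and 21.5 in ΔSE12313-b. The groups did not overlap, and the ΔE2 clones were the lowest. SLC2A3 fell by 1.97 on the log2 scale in ΔE2 (SE 0.12, 3.91-fold, limma adjusted p = 7.67e-06). In ΔSE12313-b it fell by 0.89 (SE 0.12, 1.86-fold, limma adjusted p = 0.00036), or by 1.18 when centred, which made it a DEG. Its place among all genes ordered by level went from 1074 in the controls to 5448 in ΔE2 and 3068 in ΔSE12313-b. SLC2A14, a near-identical neighbour, can share reads with SLC2A3 and was at a mean of 7.95, 1.85 and 3.97 FPKM in the same order of groups, so the values of the pair are uncertain.

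SLC2A1, on chromosome 1 at 43391046 to 43424847, was at 5.10 and 4.39 FPKM in the controls, 8.69, 8.46 and 9.40 in ΔE2, and 12.9, 10.8 and 10.6 in ΔSE12313-b. Every clone was above both controls, and the ΔSE12313-b clones were above the ΔE2 clones. Its log2 fold change was 0.89 (SE 0.12) in ΔE2 and 1.25 (SE 0.12) in ΔSE12313-b, and 0.73 and 0.96 when centred, all passing the test. The sum of both carriers was nevertheless lower in the clones, at 43.8 ± 0.858 FPKM in the controls, 18.8 ± 1.29 in ΔE2 and 32.4 ± 0.653 in ΔSE12313-b (mean ± SD). Of the 9 steps and families into which the 34 genes were sorted, this was the one whose summed FPKM had a lower mean in the deletions than in the controls.

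Hexokinase traps glucose as glucose 6-phosphate. HK1, the isoform of most tissues, was at 48.9 and 47.9 FPKM in the controls, 65.4, 62.7 and 71.2 in ΔE2, and 96.5, 97.7 and 90.0 in ΔSE12313-b. The 3 groups did not overlap, and the log2 fold changes were 0.45 (SE 0.08) and 0.97 (SE 0.08). With quantile normalization HK1 was at 0.11 in ΔE2 and did not pass (limma adjusted p = 0.298). HK2, the inducible isoform, was at 4.08 and 4.63 FPKM in the controls, 5.12, 3.35 and 5.64 in ΔE2, and 5.15, 5.04 and 3.06 in ΔSE12313-b. The clones of each deletion lay on both sides of the controls, and HK2 did not pass the test in either deletion: its log2 fold change of 0.08 in ΔE2 turned to -0.08 with centring, and it was -0.01 in ΔSE12313-b.

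Isozymes of phosphofructokinase catalyse the committed step. In ΔE2 none of PFKL, PFKM and PFKP passed limma's test as reported, also at an unadjusted p under 0.05, with log2 fold changes of 0.08, 0.12 and 0.04 that all turned negative (-0.08, -0.03 and -0.12) with centring. With quantile normalization PFKP passed as lower in ΔE2, at -0.30 (limma adjusted p = 0.00894). The control means of PFKL, PFKM and PFKP were 31.9, 29.2 and 58.5 FPKM. Their sum was 119 to 120 FPKM in the controls, 125 to 126 in ΔE2 and 176 to 191 in ΔSE12313-b. PFKP, the platelet form, was at 59.0 and 57.9 FPKM in the controls, 59.6, 60.5 and 59.8 in ΔE2, and 106, 98.1 and 95.5 in ΔSE12313-b. The ΔSE12313-b clones stood well above the other 5 libraries, which lay close together. In ΔSE12313-b the log2 fold change of PFKP was 0.77 (SE 0.07) and that of PFKM, the muscle form, 0.55 (SE 0.11), which did not pass when centred (0.26), while PFKL, the liver form, at 0.26 did not pass and turned to -0.03 with centring.

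The bifunctional PFKFB enzymes make and remove fructose 2,6-bisphosphate, the activator of phosphofructokinase. PFKFB3, the form with the highest kinase activity, was at 3.37 and 3.62 FPKM in the controls, 5.14, 5.47 and 6.0 in ΔE2, and 9.16, 8.55 and 8.02 in ΔSE12313-b. It rose stepwise over the groups without overlap, with log2 fold changes of 0.65 (SE 0.10) and 1.27 (SE 0.10), the second 0.98 when centred and then short of 2-fold. PFKFB2, the heart form, went the other way, with a mean of 2.69 FPKM in the controls, 1.35 in ΔE2 and 1.90 in ΔSE12313-b. It fell by 0.95 (SE 0.17) in ΔE2, or by 1.11 when centred, which made it a DEG, and by 0.48 (SE 0.17) in ΔSE12313-b, where limma's adjusted p was 0.045 and leaving out 1 library lost the call in 6 of 8 cases (-0.57 to -0.38). PFKFB4, with a control mean of 1.29 FPKM, had a log2 fold change of 0.45 in ΔE2, which did not pass, and of 0.65 in ΔSE12313-b, which did, though not when centred (0.37). Without ΔE2 clone 1 the first was 0.59 and passed, and without control 1 the second was 0.56 and did not.

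Of the other enzymes of the upper part, which rearrange and split the sugar, GPI, ALDOA and TPI1 were higher in both deletions. GPI, which turns glucose 6-phosphate into fructose 6-phosphate and lies on chromosome 19 at 34855897 to 34893318, was at 33.2 and 33.7 FPKM in the controls, 82.6, 81.5 and 86.5 in ΔE2, and 109, 99.8 and 97.6 in ΔSE12313-b. The clones of each deletion lay close together and far above the controls. Its log2 fold change was 1.32 (SE 0.07, 2.49-fold, limma adjusted p = 4.86e-06) in ΔE2 and 1.61 (SE 0.07, 3.05-fold, limma adjusted p = 1.59e-06) in ΔSE12313-b.

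TPI1, the triosephosphate isomerase, was at 161 and 153 FPKM in the controls, 326, 301 and 334 in ΔE2, and 481, 425 and 413 in ΔSE12313-b. The groups were apart, with log2 fold changes of 1.03 (SE 0.09) and 1.49 (SE 0.09), of which the first was 0.87 when centred and then short of 2-fold. ALDOA, the main aldolase, rose by 0.56 (SE 0.08) and 0.96 (SE 0.08) on the log2 scale, and its means were 219 FPKM in the controls, 324 in ΔE2 and 426 in ΔSE12313-b. With quantile normalization ALDOA was at 0.17 in ΔE2 and did not pass (limma adjusted p = 0.118). ALDOC, the brain aldolase, had 2 to 12 reads in a library, means of 0.364, 0.185 and 0.105 FPKM in the same order of groups, and was not tested. A read-through gene transcribed in the same direction covers 42.8% of the bases in ALDOA exons, and reads there cannot be assigned to one of them.

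In the later steps of glycolysis, which yield ATP, 5 of the 6 genes passed as higher in each deletion. Of all genes tested, 34.7% did in ΔE2 and 43.0% in ΔSE12313-b. PGK1, among the 5, did not pass with centring in either deletion. GAPDH, whose product makes NADH and is often used as a reference gene, was at 972 FPKM in both controls, 1547, 1531 and 1722 in ΔE2, and 2222, 2121 and 2042 in ΔSE12313-b. It was the most abundant of the 34 genes in every group and ranked 23 among all genes in the controls, 16 in ΔE2 and 7 in ΔSE12313-b. The log2 fold change was 0.72 (SE 0.09) in ΔE2 and 1.13 (SE 0.09) in ΔSE12313-b, the second 0.84 when centred. The annotation names 65 GAPDH pseudogenes, the most for any of the 34 genes, and reads that match both could be counted in either.

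PGAM1, the phosphoglycerate mutase on chromosome 10 at 99185882 to 99193201, was at 66.7 and 67.9 FPKM in the controls, 156, 152 and 179 in ΔE2, and 280, 243 and 221 in ΔSE12313-b. The lowest clone was above 2 times either control, and the ΔSE12313-b clones were above all ΔE2 clones. The log2 fold change was 1.26 (SE 0.11, 2.40-fold, limma adjusted p = 6.75e-05) in ΔE2 and 1.87 (SE 0.11, 3.67-fold, limma adjusted p = 7.41e-06) in ΔSE12313-b. PGAM1 has 13 named pseudogenes.

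PGK1, the first ATP-yielding enzyme, was at 67.3 and 67.6 FPKM in the controls, 131, 119 and 130 in ΔE2, and 168, 75.4 and 142 in ΔSE12313-b. ΔSE12313-b clone 2 lay near the controls, and the other 5 clones lay well above them. The log2 fold change in ΔSE12313-b was 0.85 (SE 0.29, limma adjusted p = 0.0341) with that clone and 1.19 (adjusted p = 0.000129) without it. In ΔE2 it was 0.91 (SE 0.29, limma adjusted p = 0.0289), and leaving the same ΔSE12313-b clone out of the common estimate of spread moved the adjusted p to 0.000288. Leaving out 1 library at a time, PGK1 lost its call in 4 of 8 cases in ΔE2 (0.88 to 0.95) and in 6 of 8 in ΔSE12313-b (0.62 to 1.19). With centring it did not pass in ΔE2 (0.75) or in ΔSE12313-b (0.56). The median of the 228 genes of Xq, the arm that holds PGK1, lay at 0.10, -0.26 and 0.16 on the log2 scale in ΔSE12313-b clones 1, 2 and 3, relative to the mean of the 3 clones and to the median of all such genes, and its part in the PGK1 value was not tested.

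The enolase genes, which act at the same step, did not move together. ENO1, the ubiquitous form, was at 403 and 397 FPKM in the controls, 890, 835 and 932 in ΔE2, and 928, 865 and 912 in ΔSE12313-b. Both deletions were alike in level and about 2 times the controls, with log2 fold changes of 1.14 (SE 0.08) and 1.17 (SE 0.08), or 0.99 and 0.88 when centred and then short of 2-fold. ENO2, the neuronal form on chromosome 12 at 7023614 to 7032859, was at 12.4 and 11.8 FPKM in the controls, 3.50, 4.14 and 3.90 in ΔE2, and 11.7, 15.1 and 12.2 in ΔSE12313-b. The ΔE2 clones stood apart from all other libraries, while the ΔSE12313-b clones overlapped the controls. ENO2 fell by 1.63 on the log2 scale in ΔE2 (SE 0.13, 3.09-fold, limma adjusted p = 3.72e-05), and in ΔSE12313-b its log2 fold change of 0.09 (95% interval -0.21 to 0.39) did not pass and turned to -0.19 with centring.

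PKM, which encodes the pyruvate kinases M1 and M2, was at 269 and 267 FPKM in the controls, 678, 708 and 719 in ΔE2, and 693, 653 and 690 in ΔSE12313-b. All 6 clones lay within the same range, far above the controls. Its log2 fold change was 1.39 (SE 0.07, 2.61-fold, limma adjusted p = 3.51e-06) in ΔE2 and 1.34 (SE 0.07, 2.53-fold, limma adjusted p = 3.57e-06) in ΔSE12313-b. The 8 listed PKM transcripts moved alike, by 1.39 to 1.41 and by 1.34 to 1.35, and the splice forms M1 and M2 were not separated here.

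Lactate dehydrogenase is a tetramer of A and B subunits, and the A form is the one known to favour lactate. LDHA, on chromosome 11 at 18415936 to 18429765, was at 103 and 108 FPKM in the controls, 484, 422 and 548 in ΔE2, and 400, 398 and 362 in ΔSE12313-b. The clones were far above the controls, and the ΔE2 clones were all above the ΔSE12313-b clones. The log2 fold change was 2.19 in ΔE2 (SE 0.11, 4.57-fold, limma adjusted p = 3.71e-06) and 1.87 in ΔSE12313-b (SE 0.11, 3.66-fold, limma adjusted p = 7.43e-06), or 2.03 and 1.58 when centred. This was the largest rise of the 32 tested genes in ΔE2, and the LDHA promoter is printed above.

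LDHB was more abundant, at 856 and 873 FPKM in the controls, 1422, 1345 and 1500 in ΔE2, and 1755, 1695 and 1564 in ΔSE12313-b. Every clone was above the controls, with log2 fold changes of 0.72 (SE 0.09) and 0.95 (SE 0.09). A second gene transcribed in the same direction covers 33.4% of the bases in LDHB exons. Lactate leaves through the monocarboxylate carriers SLC16A1 (MCT1) and SLC16A3 (MCT4). SLC16A3 was at 18.4 and 15.5 FPKM in the controls, 23.6, 20.2 and 21.4 in ΔE2, and 42.3, 35.1 and 31.0 in ΔSE12313-b. The ΔSE12313-b clones stood apart above the others. The log2 fold change of SLC16A3 was 1.08 (SE 0.14) in ΔSE12313-b, or 0.79 when centred, while the 0.36 of ΔE2 did not pass (limma adjusted p = 0.064) but did in a fit of those 2 groups alone (limma adjusted p = 0.0407). SLC16A1, at a control mean of 28.7 FPKM, rose by 0.43 (SE 0.12) and 0.68 (SE 0.12), the first 0.27 and no longer passing when centred, and neither passed with quantile normalization (0.12 and 0.23).

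Pyruvate dehydrogenase kinases switch off the entry of pyruvate into mitochondria. PDK3, on chromosome X at 24483344 to 24552542, was at 1.41 and 1.11 FPKM in the controls, 1.99, 2.28 and 2.67 in ΔE2, and 2.74, 3.51 and 4.29 in ΔSE12313-b. The groups did not overlap, and each value rests on 24 to 122 reads. Its log2 fold change was 0.83 (SE 0.22) in ΔE2 and 1.40 (SE 0.22) in ΔSE12313-b for the transcript used, and 0.41 and 1.12 for the other. The ΔE2 call was lost with voom on the recovered reads (0.68, adjusted p = 0.0943) and without control 2 (0.67, limma adjusted p = 0.101). PDK1, at a control mean of 0.974 FPKM, rose by 0.52 (SE 0.18) and 0.57 (SE 0.18), neither of which passed when centred, and leaving out 1 library lost the call in 5 and 4 of 8 cases. PDK2, at a control mean of 3.43 FPKM, rose by 0.57 (SE 0.17) in ΔSE12313-b, which did not pass when centred, and in ΔE2 its log2 fold change of 0.05 did not pass and turned to -0.11 with centring. PDK2 transcripts differed, from -0.01 to 0.70 in ΔE2, and PDK4, with 0 to 4 reads in a library, was not tested.

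The pentose phosphate pathway has oxidative steps, which make NADPH, and non-oxidative steps, which shuffle sugars. PGLS, of the oxidative part, was lower in both deletions, with a mean of 29.5 FPKM in the controls, 21.9 in ΔE2 and 23.2 in ΔSE12313-b and log2 fold changes of -0.43 (SE 0.12) and -0.35 (SE 0.12). Leaving out 1 library lost the call of PGLS in 2 of 8 cases in ΔE2 and in 4 of 8 in ΔSE12313-b, with values of -0.50 to -0.35 and of -0.43 to -0.29. PGD, the second NADPH-yielding enzyme, was at 65.9 and 62.9 FPKM in the controls, 51.3, 63.4 and 60.5 in ΔE2, and 77.6, 78.5 and 83.6 in ΔSE12313-b. The ΔE2 clones overlapped the controls and the ΔSE12313-b clones were above them. The log2 fold change of PGD was -0.15 in ΔE2, which did not pass but did with centring (-0.30), and 0.31 (SE 0.10) in ΔSE12313-b, which fell to 0.02 with centring.

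TKT, the transketolase, was at 94.1 and 93.6 FPKM in the controls, 124, 130 and 134 in ΔE2, and 210, 168 and 191 in ΔSE12313-b. The groups rose stepwise without overlap, by 0.46 (SE 0.10) and 1.01 (SE 0.10) on the log2 scale, the second 0.72 when centred. With quantile normalization TKT was at 0.03 in ΔE2 and did not pass (limma adjusted p = 0.729). TALDO1, the transaldolase, was at 67.1 and 70.4 FPKM in the controls, 133, 117 and 149 in ΔE2, and 151, 139 and 136 in ΔSE12313-b. The clones of both deletions overlapped each other above the controls, with log2 fold changes of 0.94 (SE 0.11) and 1.04 (SE 0.11), or 0.78 and 0.76 when centred. RPE, the epimerase, at a control mean of 10.8 FPKM, rose by 0.37 (SE 0.09) and 0.52 (SE 0.09). RPIA, the isomerase, at a control mean of 8.73 FPKM, rose by 0.68 (SE 0.08) in ΔSE12313-b, while its log2 fold change of 0.15 in ΔE2 did not pass and went to 0 with centring. RPE has 6 named pseudogenes and shares 23.8% of its exon bases with KANSL1L on the opposite strand, and the strand handling of the counts is not given in the sources used here. Its rise in ΔE2 did not pass when centred (0.21) or without control 1 (0.32), nor did that in ΔSE12313-b with quantile normalization (0.15).

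**Figure D1:**
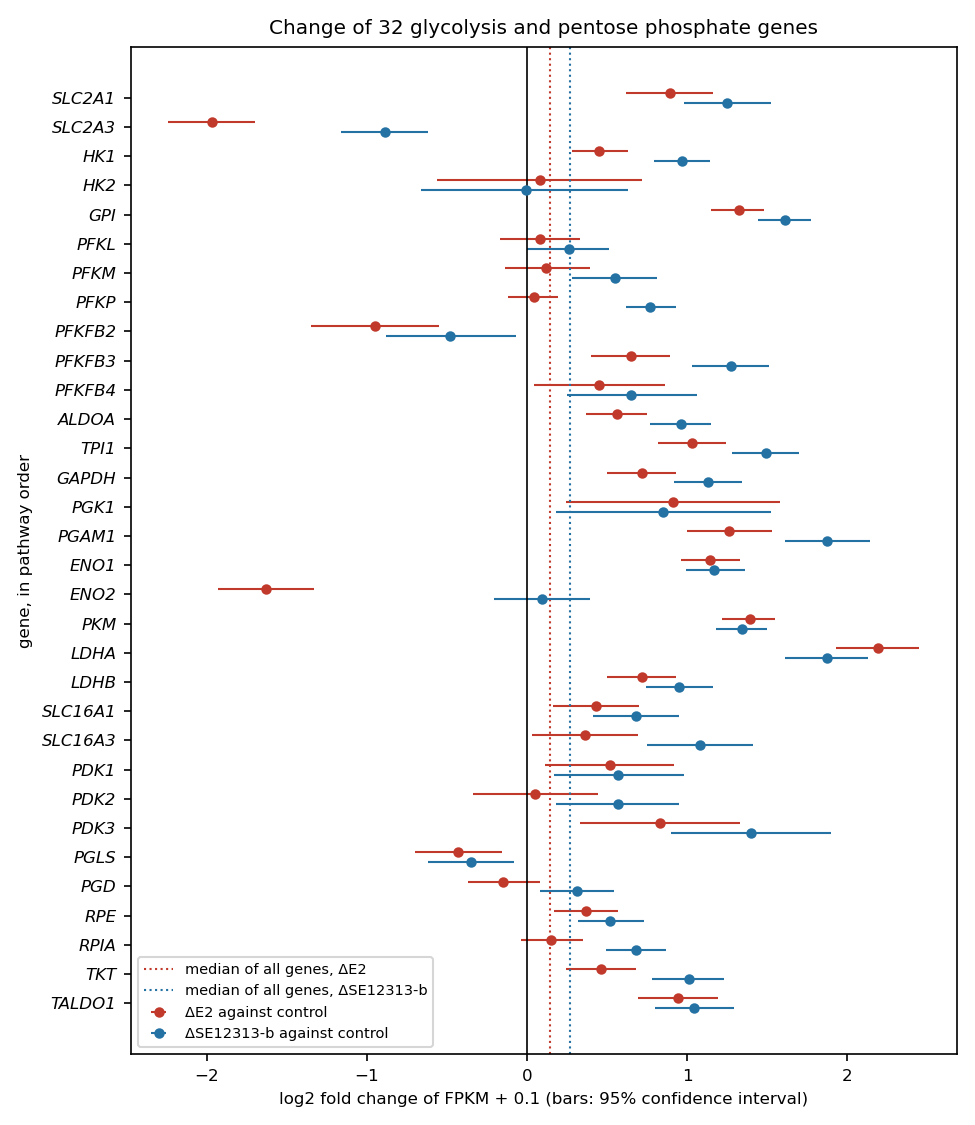
Log2 fold change of FPKM + 0.1 against control (horizontal axis) for the 32 tested genes in pathway order (vertical axis), with 95% confidence intervals; dotted lines are the medians of all 13789 genes, 0.14 for ΔE2 and 0.27 for ΔSE12313-b. Most points lie right of the dotted lines. SLC2A3, PFKFB2 and PGLS lie left of 0 in both deletions, ENO2 and PGD in ΔE2, and HK2 just left of 0 in ΔSE12313-b. HK2, PFKL, PFKM, PFKP, PDK2 and RPIA in ΔE2 and PFKL and ENO2 in ΔSE12313-b change sign or reach 0 once libraries are centred.

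The share of one isoform within its family does not depend on how a library is scaled. Of the summed FPKM of the glucose carriers SLC2A1 and SLC2A3, SLC2A1 made up 11.8% and 9.89% in the controls, 49.4%, 42.0% and 50.1% in ΔE2, and 38.9%, 33.7% and 33.0% in ΔSE12313-b. The 3 groups were apart, with ΔE2 the highest. LDHA made up 10.7% and 11.0% of the summed lactate dehydrogenase FPKM in the controls, 25.4%, 23.9% and 26.8% in ΔE2, and 18.6%, 19% and 18.8% in ΔSE12313-b. Here too the groups were apart in the same order. LDHB remained the larger part in all 8 libraries.

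ENO2 made up 2.93% ± 0.0783 of enolase FPKM in the controls, 0.434% ± 0.0533 in ΔE2 and 1.43% ± 0.255 in ΔSE12313-b (mean ± SD), and so its share was below the controls in ΔSE12313-b too, where ENO1 rose and the level of ENO2 did not pass the test. PFKFB3 held 46.8% ± 2.15 of PFKFB FPKM in the controls, 63.8% ± 3.42 in ΔE2 and 68.3% ± 1.14 in ΔSE12313-b. PFKP held 48.9% ± 0.499 of phosphofructokinase FPKM in the controls, 47.7% ± 0.291 in ΔE2 and 55.1% ± 0.852 in ΔSE12313-b. HK1 held 91.2% to 96.7% of hexokinase FPKM in every library. The exact permutation test (two-sided) cannot go below p = 0.2 for 2 against 3 libraries or p = 0.1 for 3 against 3, so no share could pass 0.05. Over 8 families and 24 comparisons, 22 gave that smallest value, and the exact permutation test gave p = 0.8 for SLC16A3 in ΔE2 against control and p = 0.5 for PDK3 between the deletions. The smallest value means only that the groups compared did not overlap, and how often other gene families reach it was not counted.

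The direct comparison sets the ΔE2 clones against the ΔSE12313-b clones, while the control libraries enter only through the common estimate of spread. Each deletion has its own set of clones, so loss of the enhancer and other differences between the sets cannot be told apart. Of the 32 tested genes, 17 were lower in ΔE2 than in ΔSE12313-b and 0 were higher (limma, Benjamini-Hochberg adjusted p under 0.05), against 19.3% and 6.69% of all genes. In a fit of the 2 deletion groups alone, SLC2A1 and PDK2 no longer passed as lower (limma adjusted p = 0.0516 and 0.059). At an unadjusted p under 0.05, 1 gene was higher, LDHA, and voom on the reads also gave 1. With centring 13 were lower and 1 was higher (11.0% and 10.5% of all genes). The median difference of the 32 genes was -0.40 on the log2 scale, and -0.27 when centred. As DEGs, 2 were lower and 0 higher (2.63% and 1.60% of all genes), and limma at an unadjusted p and voom also gave 0 higher. With centring the DEGs were 1 lower and 0 higher (1.77% and 2.08%).

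Those 2 were ENO2 and SLC2A3. ENO2 was 3.30-fold lower in ΔE2 than in ΔSE12313-b, a log2 difference of -1.72 (SE 0.12, limma adjusted p = 0.000224), or -1.59 when centred. SLC2A3 was 2.11-fold lower, at -1.08 (SE 0.10, limma adjusted p = 0.000759), and at -0.95 it was short of 2-fold when centred. Both lie on 12p, within a short stretch that also holds GAPDH and TPI1, whose differences were -0.41 and -0.46. LDHA was at 0.32 (95% interval 0.09 to 0.55, limma adjusted p = 0.0522), the furthest above 0 of the 32, and it passed as higher in ΔE2 when centred, at 0.45 (limma adjusted p = 0.0151). PKM differed by 0.05 (95% interval -0.10 to 0.19) and ENO1 by -0.03 (95% interval -0.19 to 0.14), and neither passed.

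Several genes that were lower in ΔE2 lie on chromosome arms that were lower as a whole. Relative to all genes, the median of 10p was 0.48 lower in ΔE2 than in ΔSE12313-b, that of 10q 0.36, that of 12p 0.29 and that of 16p 0.45. These 4 arms, picked after their values were seen as the ones at least 0.2 lower that hold any of the 34 genes, carry 10 of the tested genes, of which 9 passed as lower, against 8 of the 22 on other arms. PFKP on 10p differed by -0.73 and PFKFB3 by -0.62, which left -0.14 and -0.03 after the medians of all genes and of the arm were taken off. HK1 on 10q was left with -0.04, and PGAM1 on 10q with -0.14. ENO2 and SLC2A3 were left with -1.32 and -0.67, while LDHB on 12p and ALDOA on 16p were left above 0, at 0.17 each. On arms without such a shift, SLC16A3 (-0.72, 17q), TKT (-0.55, 3p) and RPIA (-0.53, 2p) were also lower in ΔE2. In ΔSE12313-b against control, the same step took PFKP from 0.77 to 0.05, HK1 from 0.97 to 0.25, PFKFB3 from 1.27 to 0.55 and PGAM1 from 1.87 to 1.16. In ΔE2 against control it raised ALDOA from 0.56 to 0.84 and GAPDH from 0.72 to 0.83. There it lowered HK1 from 0.45 to 0.24 and PGAM1 from 1.26 to 1.05. The number of copies of these arms in each clone was not measured, and its part in these differences was not tested.

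The spread between clones of one deletion was small for most of these genes. The median coefficient of variation of the 32 genes was 3.26% between the controls, 7.27% between ΔE2 clones and 6.59% between ΔSE12313-b clones. HK2 varied by 25.5% in ΔE2 and 26.6% in ΔSE12313-b, and PGK1 by 37.2% in ΔSE12313-b. Outside PDK2 and PDK3, the listed transcripts of one gene gave log2 fold changes within 0.13 of each other. Such transcripts can share exons and thus reads, and several genes list only 1 transcript, so this closeness is no separate check.

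Other genes of carbohydrate metabolism were read from lists of related genes. Of 12 tested genes at the side branches of glycolysis, 6 were higher and 1 was lower in each deletion, where 34.7% and 19.4% of all genes were in ΔE2 and 43.0% and 16.4% in ΔSE12313-b. With centring, 4 were higher and 2 lower in ΔE2 and 5 and 2 in ΔSE12313-b, where 26.6% and 26.1% and then 27.7% and 27.3% of all genes were, and these shares serve for the lists that follow too. The median log2 fold changes of the list were 0.42 and 0.59 beside 0.14 and 0.27 over all genes tested. GPD2, the mitochondrial glycerol 3-phosphate dehydrogenase that carries electrons of glycolytic NADH to the respiratory chain, was at 1.05 and 1.03 FPKM in the controls, 5.21, 4.64 and 5.51 in ΔE2, and 6.16, 6.49 and 5.44 in ΔSE12313-b. Its log2 fold changes, 2.19 (SE 0.12) and 2.42 (SE 0.12), were no smaller than those of LDHA. PGM2, a phosphopentomutase, rose by 1.05 (SE 0.17) and 1.19 (SE 0.17), or 0.89 and 0.90 when centred. PGP, a phosphatase that clears side products of glycolysis, rose by 1.18 (SE 0.10) in ΔSE12313-b, or 0.89 when centred. Of 9 further pentose and ribose genes, 6 were higher in each deletion, 1 was lower in ΔE2 and 2 were lower in ΔSE12313-b, with medians of 0.49 and 0.82, and with centring 5 were higher in each and 1 and 2 lower. H6PD, which makes NADPH inside the endoplasmic reticulum, fell by 1.25 (SE 0.28) in ΔE2. In ΔSE12313-b RBKS, the ribokinase, fell by 2.21 (SE 0.61), and SHPK, the sedoheptulokinase, rose by 1.01 (SE 0.13), or 0.72 when centred.

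Among 8 further hexose and monocarboxylate carriers, 2 were higher and 2 lower in ΔE2, and 4 were higher and 4 lower in ΔSE12313-b, with medians of -0.22 and 0.25. With centring they were 1 higher and 4 lower in ΔE2, and 3 and 4 in ΔSE12313-b. SLC2A12 rose by 2.09 (SE 0.23) and 1.24 (SE 0.23), the second 0.95 when centred and then short of 2-fold, SLC2A6 rose by 1.41 (SE 0.48), which did not pass when centred, and 1.65 (SE 0.48), and SLC2A11 fell by 1.70 (SE 0.17) and by 1.23 (SE 0.17). SLC2A14, the neighbour of SLC2A3, fell by 2.06 (SE 0.14) in ΔE2 and by 0.99 in ΔSE12313-b, or by 1.27 and past 2-fold when centred. It can share reads with SLC2A3, so whether it fell apart from that gene is uncertain. The study also lists SLC2A14 among its top downregulated genes of ΔE2, with a much larger fall than here. SLC16A7, which encodes the carrier MCT2, rose by 2.61 (SE 0.45) in ΔSE12313-b. In ΔE2 its log2 fold change of -0.58 (SE 0.45) did not pass, whereas the study lists it among its top downregulated genes of ΔE2. Of 11 genes of pyruvate entry into mitochondria, 7 were higher in ΔE2 and 5 in ΔSE12313-b (medians 0.32 and 0.27), and with centring 4 and 2 were higher and 2 and 1 lower. MPC2, a subunit of the mitochondrial pyruvate carrier, rose by 1.02 (SE 0.11) and 0.94 (SE 0.11), the first 0.86 when centred and then short of 2-fold.

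Of 11 tested regulators of glycolytic genes, 3 were higher and 2 lower in ΔE2, and 5 were higher and 1 lower in ΔSE12313-b, with medians of 0.02 and 0.20. With centring they were 2 higher and 5 lower in ΔE2, and 3 and 2 in ΔSE12313-b. EGLN1 (0.82), MLXIP (0.49) and EGLN2 (0.39) passed as higher in ΔE2, the last not when centred (0.23). In ΔSE12313-b EGLN1 (0.73), MLXIP (0.76) and EGLN2 (0.95) passed as higher. So did HIF1AN (0.52) and MLX (0.51) there, which did not pass when centred (0.24 and 0.22). VHL (-0.48) and TXNIP passed as lower in ΔE2. In ΔSE12313-b TXNIP did, and VHL only with centring (-0.66). HIF1A, the oxygen-regulated subunit of hypoxia-inducible factor 1, had log2 fold changes of -0.46 (SE 0.22) and -0.14 (SE 0.22), and MYC of 0.02 (SE 0.20) and 0.14 (SE 0.20). None of these passed, although HIF1A did in ΔE2 with centring (-0.62), and the protein, which sets the activity of HIF1A, was not measured. TXNIP, which restrains glucose uptake and whose transcription is known to rise with glucose, was the regulator with a change of over 2-fold: it was at 317 and 319 FPKM in the controls, 1.88, 4.13 and 2.68 in ΔE2, and 1.28, 1.74 and 6.21 in ΔSE12313-b. Its log2 fold changes were -6.80 (SE 0.60) and -6.98 (SE 0.60).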

How the data were processed

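Total RNA of 8 EA.hy926 libraries (2 control, 3 ΔE2, 3 ΔSE12313-b) was depleted of ribosomal RNA and sequenced from one end with a stranded kit. The authors trimmed reads (Trim Galore 0.4.4), mapped them to GRCh37 (STAR 2.5.4b) and deposited one FPKM table with a line per RefSeq transcript. They name featureCounts with a Gencode annotation for counting, so whether that tool made the RefSeq table is uncertain. The RefSeq release and strand handling of the table are not given in the sources used here. Lines naming no gene (42) were dropped, and the transcript with the highest mean FPKM stood for each gene. Reads were recovered from FPKM and transcript length, with 100% of values whole within 0.1 read, and were used for depth and one alternative only.

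The test took the 13789 genes that reached 0.5 FPKM in 2 or more libraries, on log2(FPKM + 0.1), a scale that understates changes of low genes, and used limma 3.58.1 in R 4.3.3: 3 groups, empirical Bayes with a variance trend, two-sided, Benjamini-Hochberg adjustment over all genes tested. A gene passed at an adjusted p under 0.05 and was a DEG with a change of at least 2-fold as well. The steps were tested on simulated data. The genes, lists and tests were chosen with earlier results of these data known. Values in each library are given for all DEGs among the 34 genes and for SLC2A1, SLC2A3, HK1, HK2, PFKP, PFKFB3, GAPDH, PKM, LDHA, LDHB, PGD and TKT, and for PGK1, GPD2 and TXNIP, chosen after their values were seen. In the lists of related genes, up to 3 DEGs in each direction were named by size. HIF1A, MYC and the other regulators that passed the test were named after their values were seen. Arms were used where 50 or more genes reached a mean of 1 FPKM. Alternatives were 2 other pseudocounts, other filters, centring, quantile normalization, a replicate block, only the groups compared, no variance trend, every transcript, voom on the reads, a 1.5-fold limit, leaving out each library, and, added after the data were seen, scaling to reads on genes.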

Additional observations from a re-analysis of the deposited data

Results flagged for a closer look

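Levels differed between the ΔE2 and ΔSE12313-b clones, past limma's test of the difference and by at least 2-fold, for 2 of the 32 tested genes. The deletion and other differences between the 2 sets of clones cannot be told apart here. SLC2A3 was lower in ΔE2, with a log2 difference of -1.08 (adjusted p = 0.000759), and all 3 ΔE2 clones were below all 3 ΔSE12313-b clones. ENO2 was lower in ΔE2 with a log2 difference of -1.72 (limma adjusted p = 0.000224), again without overlap between the 3 clones of each deletion.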

How the results depend on the processing

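Clones share only a number across groups: deviations of same-numbered clones correlated at -0.08 to 0.11. With the replicate block the genes lower in ΔSE12313-b went from 3 to 1, and HK2 there turned to 0.03. Upregulated DEGs in ΔE2 were 3 with quantile normalization and 13 at a 1.5-fold limit. In ΔSE12313-b they were 6 with centring, 7 with quantile normalization, voom and scaling to reads on genes, and 21 at 1.5-fold, and downregulated DEGs were 1 under each of these 5. Between the deletions, genes higher in ΔE2 were 1 with a mean FPKM of at least 1, centring, quantile normalization, every transcript, voom and scaling to reads on genes; DEGs lower in ΔE2 were 1 with centring, quantile normalization, voom and scaling to reads on genes, and 6 at 1.5-fold. Voom called 3470 genes higher and 3673 lower in ΔE2, 3679 and 3797 in ΔSE12313-b, and 1560 and 1784 between them.

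Signs reversed under centring, quantile normalization, voom and scaling to reads on genes, in that order, for genes that did not pass in the reported fit. In ΔE2 the values were -0.08, -0.07, -0.09 and -0.07 for HK2, -0.08, -0.23, -0.08 and -0.07 for PFKL, -0.03, -0.18, -0.04 and -0.03 for PFKM, -0.12, -0.30, -0.13 and -0.11 for PFKP, and -0.11, -0.07, -0.11 and -0.10 for PDK2; RPIA was 0, -0.05 and -0.01 under the first 3. Of these PFKP passed as lower at its -0.30. In ΔSE12313-b they were -0.03, -0.21, -0.03 and -0.01 for PFKL and -0.19, -0.27, -0.20 and -0.17 for ENO2. PGD, which passed there, was -0.18 with quantile normalization. These alternatives take off the shift of the median of all genes, and other causes were not tested.

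Leaving out 1 library gave 1 to 3 genes lower in ΔSE12313-b (1 without either control, clone 1 or clone 2), 0 to 1 genes higher between the deletions (1 without ΔE2 clone 2), and 1 to 2 DEGs lower between them (1 without ΔE2 clone 1). HK2 lay between -0.07 and 0.30 in ΔE2 and between -0.14 and 0.23 in ΔSE12313-b, PDK2 from -0.08 to 0.18 in ΔE2, and ENO2 from -0.02 to 0.17 in ΔSE12313-b. Without one control the other is assumed to vary like the clones. With 2 control libraries and 3 clones a group, small changes of genes with few reads, such as PDK1, PDK3 and PFKFB4 with 24 to 126 in a library, are the least certain.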
